A study of Mus musculus with 12 samples.

Results

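The genes described here build, license and drive the DNA replication fork. They are 50 named genes: the origin recognition complex and its loading factors, the MCM helicase and its activators, the polymerases, primase, clamp and clamp loader, single-strand binding proteins, Okazaki fragment and nucleotide enzymes, G1/S regulators, the RecQ helicase Blm and the maintenance methylation factor Uhrf1. They were found by gene symbol among the spots that name a single gene. All 50 are on the array, on 53 spots, and 49 of them have a value on at least 2 arrays of every group. Pole2, the second subunit of polymerase epsilon, had a value on 3 of the 12 arrays and was not tested. Of the 49 genes, 39 have a value on all 12 arrays and 10 have gaps.

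Total RNA of 12 mouse samples was labelled with a Cy3-channel dye and hybridised to 2-colour spotted arrays against a commercial embryonic RNA in the Cy5 channel. The series concerns a growth hormone receptor in the nucleus. Its 4 groups of 3 arrays each combine WT or NLS with a GH number of 0 or 1 in the titles, which also carry a 10 (WT10, NLS10). The labels do not spell out NLS. Every sample, those titled 0GH included, has human growth hormone at 100 ng/ml as its listed treatment, and the experiment is labelled a time course. The sources used here do not say what the 10, the 0 and the 1 stand for, nor which cell type, strain or age was used, so the difference of 1GH from 0GH is called the GH number. Each group holds samples b, c and d. The reference dye incorporation is the same within a letter, and whether letters are separate cultures is not stated, so p-values measure the spread between these samples, which may be technical.

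A value is the log2 ratio of sample over embryonic reference after the median of each array was set to 0. The deposited values do not state which channel is the numerator. The sign was turned because 35 of 39 genes of embryonic tissues then lay on the reference side, with a median of 4.47 log2 units toward it. The direction is therefore likely and not certain, and under the opposite reading every sign below turns. A ratio of 0 is the level of the typical spot, not of zero transcript, and the order of ratios across genes is not an order of transcript amounts. In bulk RNA, fewer cells in S phase and less transcript per cell cannot be told apart. Between 15939 and 19700 of the spots had a value per array, and 7.85% to 19.5% of blank spots had one. Values of different arrays correlated at 0.302 to 0.697 across spots, with a median of 0.437. Markers of other cell types were read beside these genes. The 6 fibroblast markers all lay on the reference side with a median of -2.60. The sign of all values was set from genes of embryonic tissues, so that side is no independent reading. The 4 erythroid markers measured of 7 had an averaged NLS minus WT difference below 0 in 4 of 4, with a median of -2.09 and 0 of 4 past adjustment. Averaged over those 4 markers, the log2 ratio ran from -1.47 to 3.12 in the 6 WT arrays and from -2.37 to 0.23 in the 6 NLS arrays. Averaged NLS minus WT had medians of -0.55 for 5 B lymphoid and -0.01 for 5 myeloid markers. It was -0.15 for 3 T lymphoid and also for the 6 fibroblast markers. Averaged 1GH minus 0GH had medians of 0.09 (erythroid), 0.51 (B lymphoid), -0.60 (myeloid), 1.29 (T lymphoid) and 0.12 (fibroblast). No marker passed adjustment in these. The part of these markers in the comparisons below was not tested.

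Replication starts at origins bound by the origin recognition complex, where Cdc6 and Cdt1 load the MCM2-7 ring in G1. The kinase pair Cdc7 and Dbf4 and the cyclin E partner Cdk2 then let Cdc45 and the GINS complex join the ring, which becomes the active helicase. Many of these genes are classic targets of E2F factors at the G1/S boundary, and growth hormone signals through JAK2 and STAT5.

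Promoters are shown as sequence that was not read in choosing genes by symbol, though that choice holds many known E2F targets. RefSeq promoters of 300 bases (250 before to 50 after the start, build GRCm38.p6) were found for 42 of the 50 genes. The E2F motifs searched were TTTCCCGC, TTTGGCGC, TTTCGCGC and TTTGCCGC on both strands, which overlap one another where 2 such sites face each other. At least 1 lay in the promoters of 16 of 42 genes (38.1%), against 704 of 27025 genes in the same table (2.6%). The STAT-type motif TTCNNNGAA, a palindrome, lay in 5 of 42 (11.9%, namely Orc4, Cdc7, Lig1, Mcm5 and Cdc45) against 9.55% of all genes. These are matches of letters, not measured binding. Stretches from 6 promoters with an E2F motif are printed, with the motif in capitals, followed by the promoter end of Blm, which holds none of either motif in its 300 bases and is shown for its place in the results on the GH number. In Mcm5 and Mcm6 the capitals cover a pair of overlapping motifs.
Mcm5, chr8:75109316-75109407, plus strand: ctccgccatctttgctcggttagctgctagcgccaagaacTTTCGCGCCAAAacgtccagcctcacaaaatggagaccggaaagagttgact
Mcm6, chr1:128359764-128359855, minus strand: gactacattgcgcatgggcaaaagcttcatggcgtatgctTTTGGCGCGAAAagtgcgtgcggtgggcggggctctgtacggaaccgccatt
Mcm7, chr5:138172001-138172088, minus strand: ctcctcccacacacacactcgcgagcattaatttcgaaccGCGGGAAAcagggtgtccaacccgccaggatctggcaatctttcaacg
Cdc6, chr11:98907973-98908060, plus strand: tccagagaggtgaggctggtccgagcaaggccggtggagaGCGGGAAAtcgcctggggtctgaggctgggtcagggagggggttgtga
Pola1, chrX:93632246-93632333, minus strand: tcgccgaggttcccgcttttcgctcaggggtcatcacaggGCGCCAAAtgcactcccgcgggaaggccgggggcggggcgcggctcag
Uhrf1, chr17:56304088-56304175, plus strand: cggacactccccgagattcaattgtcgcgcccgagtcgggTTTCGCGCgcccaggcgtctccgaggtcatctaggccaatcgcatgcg
Blm, chr7:80534999-80535118, minus strand: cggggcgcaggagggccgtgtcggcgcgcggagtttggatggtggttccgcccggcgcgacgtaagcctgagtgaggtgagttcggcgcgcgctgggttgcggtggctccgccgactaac

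Against the embryonic reference, most replication genes lay above the array median in these samples, and the polymerase and primase genes had the highest median of the roles with at least 3 genes, 1.24. By limma with Benjamini-Hochberg adjustment over all 15115 features, 24 of 49 genes passed an adjusted p of 0.05 as higher, against 17.9% of all features. As lower, 3 of 49 passed, against 25.1%, and 27 of 49 passed in either direction, against 43% of features. In all, 41 of 49 were above 0, against 46% of all features, and their median was 0.86 against -0.12. On single arrays between 31 and 39 of these genes lay above the median. Leaving out one letter moved the count most: 11 were called higher and 1 lower without letter c, and 10 and 0 without letter d. Over all 15115 features the calls fell from 6505 to 2783 (1205 higher, 1578 lower) and 2760 (1077 higher, 1683 lower). Without letter b 17 genes were called higher and 3 lower, against 2149 and 3714 of 15115 features. There 37 of 49 genes were above 0, and their median was 0.60 against -0.21 for all features. Without centring 27 genes were called higher and 1 lower, against 3338 and 1881 of 15115 features. With quantile normalization 34 and 1 were, against 4627 and 2565 of 15115 features. Those settings turn the split over all features from 41.7% higher among the calls to 64.0% and 64.3%. With the letter as a random block 18 genes were called higher and 2 lower, against 2004 and 2951 of 15115 features. The calls below are those of the fit without a block. Under every alternative tried, 6 genes kept their call: Cdc7, Dbf4, Mcm4, Pola1, Rpa1 and Rrm1. A further 10 lost it only where all 4 arrays of a letter were left out: Cdc45 and Orc5 without b, Orc3, Pole, Mcm2 and Rfc2 without c, and Gins2, Prim1, Rpa3, Mcm2, Orc5 and Rfc2 without d. Ccne2, the last of the 10, lost it without b, c or d. The remaining 11 lost it in 3 to 17 alternatives each.

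**Figure D1:**
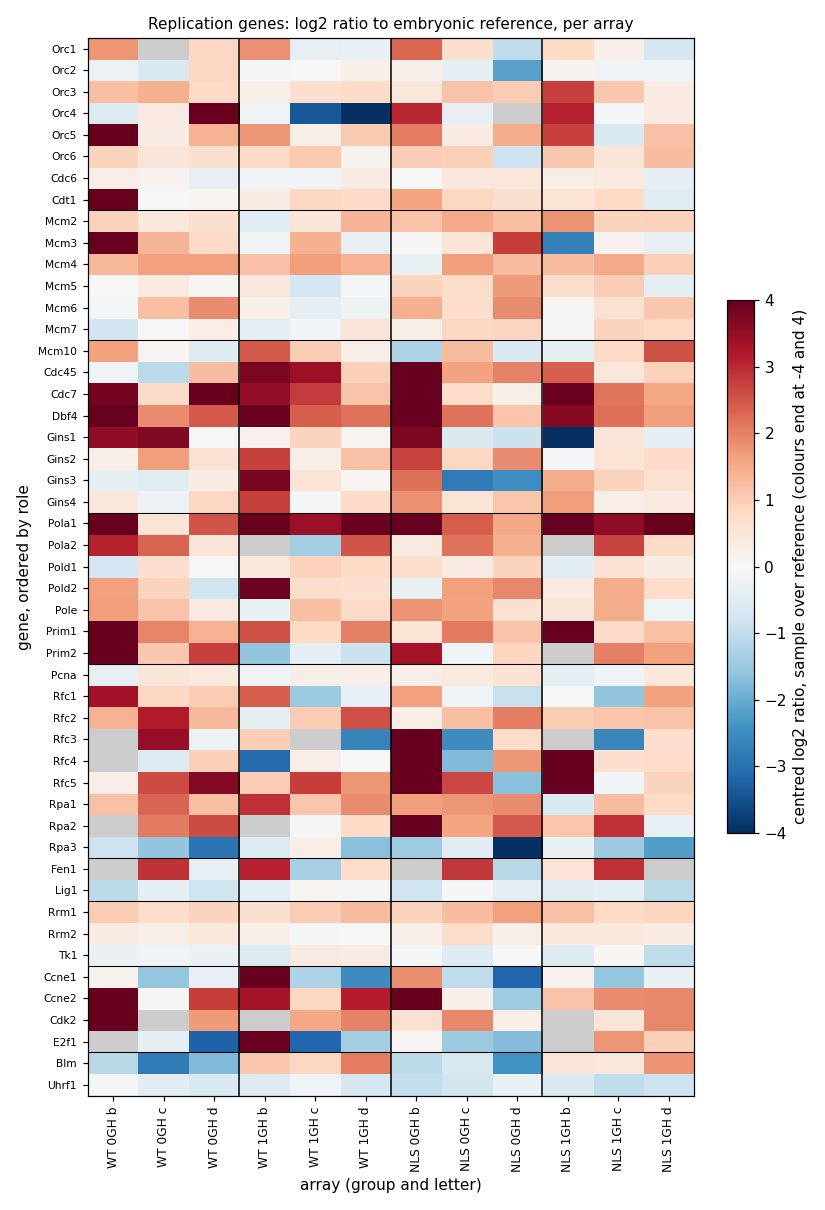
Log2 ratio of sample over embryonic reference, centred on the array median, for 49 replication genes (rows, grouped by role) on 12 arrays (columns, grouped by receptor and GH number). Colour ends at -4 and 4, grey marks a missing value, and most rows are on the sample side on most arrays, with Rpa3 and Uhrf1 on the reference side.

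The origin and licensing genes were split. Orc3, Orc5 and Orc6 were called higher, 3 of 8 in that role, and Orc3 was above the median on 12 of 12 arrays with a mean of 0.98 (SE 0.21). Orc6 lost the call in 6 of 25 alternatives: with the letter as a random block, without letter b or c, and without WT 1GH c, NLS 0GH c or NLS 1GH d. Orc2 lay at -0.19 and Cdc6, which loads the ring, at 0.10, and neither passed. Cdc6 was steady, between -0.37 and 0.46 on the 12 arrays. Cdt1, its partner, had a mean of 0.95 that leans on 1 array: WT 0GH b gave 5.47 and the other 11 ran from -0.49 to 1.58.

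All 6 subunits of the MCM2-7 ring lay above 0, and 3 of 6 passed. Mcm4 had the firmest ratio, 1.26 (SE 0.19, adjusted p = 0.000724 by limma with Benjamini-Hochberg adjustment). It was between 0.95 and 1.67 on 11 arrays and at -0.30 on NLS 0GH b. Mcm2 stood at 0.91 (SE 0.18) and Mcm6 at 0.70 (SE 0.21), which lost the call with the letter as a random block and without letter c or d. Mcm3 at 0.65, Mcm5 at 0.39 and Mcm7 at 0.26 did not pass, and Mcm3 was the most scattered of the ring, from -2.70 to 4.27.

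Genes that turn the loaded ring into a helicase were all above 0, and 5 of 8 passed. Dbf4, the activating subunit of Cdc7, had a mean of 2.98 (SE 0.48, adjusted p = 0.00111 by limma with Benjamini-Hochberg adjustment) and Cdc7 one of 2.57 (SE 0.52). Both were above the median on 12 of 12 arrays. For Dbf4 the 4 arrays of letter b gave 4.61, 5.75, 5.70 and 3.65, and the 8 arrays of letters c and d gave 1.11 to 2.45. Letter b stood above c and d, which overlapped each other, and the groups overlapped. Without letter b its mean was 2.01, and it still passed. Cdc45 stood at 1.71 (SE 0.39), and Gins2 and Gins4 were called higher at 1.11 and 0.86, and Gins4 lost the call in 5 of 25 alternatives, 3 of them with a single array left out (WT 0GH d, NLS 0GH b or NLS 1GH b). The pair of Gins4 spots differed: one ran from -1.06 to 5.37 and the other from 0.01 to 0.59. Gins1 at 0.51, Gins3 at 0.31 and Mcm10 at 0.61 did not pass. Another Mcm10 spot had a value on only 6 arrays and was left out by the filter. It read 0.17 on WT 0GH d, -1.85 and -1.04 on WT 1GH c and d, -5.05 and -2.34 on NLS 0GH c and d, and -2.03 on NLS 1GH c.

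Polymerases and primase held the highest ratio of the set, and 6 of 7 measured genes passed. Pola1, the catalytic subunit of polymerase alpha, reached 3.68 (SE 0.52, adjusted p = 0.000568 by limma with Benjamini-Hochberg adjustment) and was above the median on 12 of 12 arrays, from 0.52 to 7.13. As for Dbf4, letter b stood highest, at 6.57, 4.20, 4.22 and 7.13, with letters c and d at 0.52 to 4.05. Without letter b the mean of Pola1 was 2.75, and it still passed. Prim1, the catalytic primase subunit, stood at 2.03 (SE 0.43) and was also above on every array. Pola2, Prim2, Pold2 and Pole passed at 1.40, 1.24, 1.06 and 0.90 (Pola2 and Pold2 lost the call in 11 alternatives each and Prim2 in 9, single arrays left out among them), and Pold1, the catalytic subunit of polymerase delta, did not at 0.37. The untested Pole2 read 3.45 on WT 0GH d, 0.15 on WT 1GH c and 4.37 on NLS 0GH c.

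The single-strand binding complex RPA was divided. Rpa1 and Rpa2 were higher at 1.44 (SE 0.22) and 1.79 (SE 0.46; not without letter c or d or WT 1GH d), and the smallest subunit gene Rpa3 was lower at -1.43 (SE 0.35, adjusted p = 0.00942 by limma with Benjamini-Hochberg adjustment), below the median on 11 of 12 arrays. The sliding clamp Pcna lay close to the typical spot, between -0.39 and 0.59 on the 12 arrays, with a mean of 0.17 (SE 0.15). Of the clamp loader, Rfc2 passed at 1.32 and Rfc5 at 2.47. Rfc5 passed narrowly (adjusted p = 0.0467 by limma with Benjamini-Hochberg adjustment) and lost the call in 17 of 25 alternatives. Its 9.02 on NLS 0GH b is larger than 8.36, the largest log2 ratio possible for a 16-bit scan with the stated floor of 200. The same holds for Rfc4 on that array.

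Rrm1, the large subunit of ribonucleotide reductase, was among the steadiest genes, from 0.63 to 1.63 on all 12 arrays with a mean of 1.01 (SE 0.14, adjusted p = 0.000473 by limma with Benjamini-Hochberg adjustment). Its small partner Rrm2 lay at 0.28 and the thymidine kinase Tk1 at -0.22, and neither passed. DNA ligase 1, Lig1, was lower at -0.47 (SE 0.15), on 11 of 12 arrays, a call lost without centring and in 11 of 25 alternatives in all, and the flap nuclease Fen1 at 1.17 did not pass. Uhrf1, which carries DNA methylation through replication, was below the median on every array, from -1.02 to -0.08, with a mean of -0.57 (SE 0.14), a call lost without centring, with quantile normalization and without letter c or d. Among the G1/S genes Ccne2 (2.04, SE 0.60) and Cdk2 (2.01, SE 0.52) were higher. Cdk2 lost the call in 4 of 24 alternatives: without letter c or d, WT 1GH d or NLS 1GH d. Ccne1 at -0.45 and E2f1 at -0.16 did not pass, and E2f1 turned sign in 5 of the alternative settings and with single arrays left out.

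**Figure D2:**
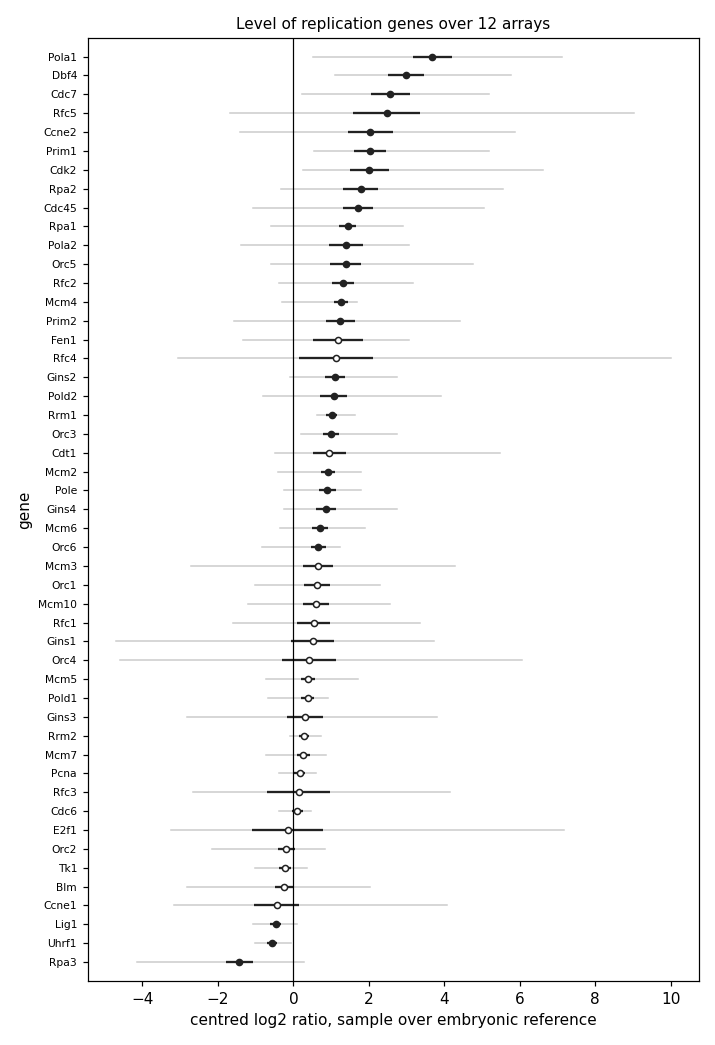
Mean log2 ratio of sample over embryonic reference for 49 replication genes, ordered by that mean. Points are means over the 4 group means with SE, grey lines join the lowest and highest array, and filled points passed an adjusted p of 0.05 (limma, Benjamini-Hochberg). Pola1 lies highest at 3.68 and Rpa3 lowest at -1.43.

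Genes with an E2F motif in their promoter did not have the higher ratios. The 15 measured genes with one had a median of 0.39, from -0.57 (Uhrf1) to 3.68 (Pola1), and 13 were above 0. The 26 without one had a median of 0.96, and 20 were above 0. These are descriptions, with no test.

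Other genes of replication and the cell cycle were read beside these, against 17.9% of all features called higher and 25.1% lower. Of 49 further replication genes, 34 were measured, 26 lay above 0 and 17 were called higher and 3 lower, with a median of 0.93. The highest was Pold3 at 2.66. As examples of the others called higher, Dut, which clears dUTP, stood at 2.10, the histone chaperone Asf1a at 2.28 and the topoisomerase Top2a at 1.56. The 3 called lower were Tk2 at -1.87, the ubiquitin ligase subunit Skp2 at -1.83 and the polymerase delta subunit Pold4 at -0.84. Of 20 further genes on a list named for DNA helicases but not limited to them, 12 were measured. Of these, 8 lay above 0 and the median was 0.45. In that list 4 were called higher and 0 lower: Chd1l, Wrn, Ruvbl1 and Zranb3, at 2.77, 2.33, 2.08 and 1.55. Of 28 G2/M genes, 25 were measured and 14 were called higher and 3 lower, with a median of 0.97.

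Between the groups, no replication gene changed by limma with Benjamini-Hochberg adjustment, and neither did any other feature. Each of the 7 comparisons called 0 of 49 genes and 0 of 15115 features (0%). An unadjusted p under 0.05 was reached by 529 to 859 features in the receptor comparisons and 439 to 513 in those of the GH number. The arrays can miss sizeable changes: the 95% interval of a difference between 2 groups reached a median of 2.23 to 2.25 log2 units to each side over these genes, and 1.58 when averaged over both sides. On simulated data for the averaged receptor comparison, 22 of 100 features changed by 2 log2 units were called, and 57 of 100 changed by 4. What follows gives values that did not pass.

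For the receptor averaged over both GH numbers, the ring subunits gave the 3 lowest unadjusted p-values above 0. Mcm5 was at 0.01, 0.36 and 0.07 in WT 0GH, 0.43, -0.72 and -0.08 in WT 1GH, 0.88, 0.74 and 1.71 in NLS 0GH and 0.69, 0.98 and -0.39 in NLS 1GH. The NLS arrays were higher at 0GH without overlap and overlapped at 1GH. The averaged difference, NLS minus WT, was 0.76 (SE 0.36, unadjusted p = 0.0653, adjusted p = 0.875 by limma with Benjamini-Hochberg adjustment).

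Mcm7 read -0.72, 0.03 and 0.28 in WT 0GH, -0.39, -0.10 and 0.51 in WT 1GH, 0.23, 0.82 and 0.86 in NLS 0GH and -0.04, 0.88 and 0.79 in NLS 1GH. Both pairs of groups overlapped, at the highest WT array in each. Its averaged difference was 0.65 (SE 0.34, unadjusted p = 0.0802, adjusted p = 0.889 by limma with Benjamini-Hochberg adjustment). Mcm2 read 0.91, 0.41 and 0.65 in WT 0GH, -0.41, 0.49 and 1.37 in WT 1GH, 1.14, 1.51 and 1.21 in NLS 0GH and 1.79, 0.89 and 0.92 in NLS 1GH. Only at 0GH were its groups apart, and the averaged difference was 0.67 (SE 0.36, unadjusted p = 0.0950). In Mcm2, Mcm5, Mcm6 and Mcm7 the averaged difference was above 0 in each of the letters b, c and d. In Mcm4 (-0.43, SE 0.37) it was below 0 in each. How many of all features keep one sign in all letters was not counted. Mcm3 lay at -1.14 (SE 0.81), with letters at -3.39, -1.05 and 1.03, and at -0.012 without letter b.

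In the averaged receptor comparison 24 of 49 genes were above 0, against 47% of all features, and 0 had an unadjusted p under 0.05, against 5.68% of features. Among differences below 0, the lowest unadjusted p-values were those of Cdk2 (-1.89, SE 1.04, on 9 arrays), Gins1 (-1.78, SE 1.15) and Rpa1 (-0.65, SE 0.45). With arrays or letters left out they ran from -3.21 to -0.58, from -2.52 to -0.99 and from -0.86 to -0.22. Pcna differed by 0.03, with a 95% interval from -0.62 to 0.69.

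At 0GH, 23 of 49 genes were above 0 (46.5% of all features were). NLS and WT arrays did not overlap in 3 genes, Mcm2, Mcm5 and Cdc45, all higher in NLS, against 12.3% of features in either direction. Cdc45, the helicase cofactor, was the only one with an unadjusted p under 0.05, against 5.21% of features. It read -0.17, -1.08 and 1.23 in WT 0GH and 5.06, 1.62 and 1.99 in NLS 0GH. The difference was 2.89 (SE 1.10, unadjusted p = 0.0255, adjusted p = 0.927 by limma with Benjamini-Hochberg adjustment). Of the others with low p-values, Cdk2 differed by -3.23 (SE 1.40), Prim1 by -1.58 (SE 1.22) and Prim2 by -1.41 (SE 1.04). In Cdk2 the value leans on the 6.61 of WT 0GH b: without that array it is -0.77, and without WT 0GH d it is -5.68. With arrays or letters left out, Prim1 ran from -2.44 (without c) to -0.054 (without b) and Prim2 from -2.41 (without NLS 0GH b) to -0.58 (without WT 0GH b). Cdc45 ran from 1.72 to 3.96.

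At 1GH, 22 of 49 genes were above 0 (48.7% of all features), and 35 of 49 without centring, where the median of all features moves from -0.02 to 0.38. Groups did not overlap in Orc4, Prim2, Rfc4 and Rrm2, 4 genes higher in NLS, against 10.9% of features in either direction. Unadjusted p-values under 0.05 came from 2 genes, against 3.5% of features. Prim2, the large primase subunit, differed by 2.75 (SE 1.16, unadjusted p = 0.0420), with 2.01 and 1.63 in NLS against -1.56, -0.38 and -0.85 in WT. Rpa1 differed by -1.50 (SE 0.63, unadjusted p = 0.0393), with -0.61, 1.24 and 0.77 in NLS against 2.91, 1.11 and 1.88 in WT, and the arrays overlapped. The adjusted p of both was 0.999 by limma with Benjamini-Hochberg adjustment. Orc4 differed by 3.83 (SE 1.91), Mcm2 by 0.71 (SE 0.52) and Gins2 by -0.97 (SE 0.74). Without letter b the differences were -0.029 for Mcm2, -0.041 for Gins2 and -0.49 for Rpa1. Orc4 ran from 2.85 to 5.11 with arrays or letters left out.

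**Figure D3:**
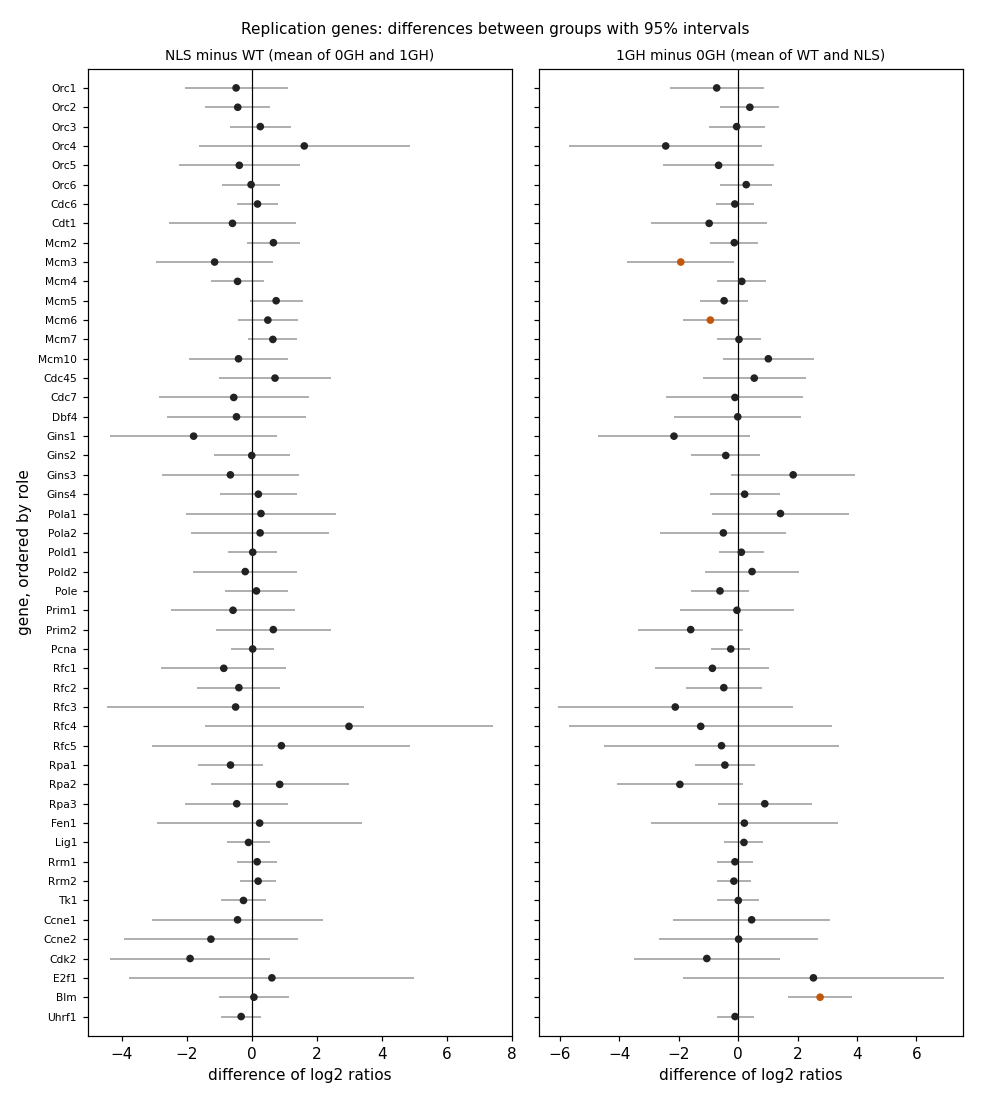
Differences in log2 ratio for 49 replication genes, averaged NLS minus WT in one panel and averaged 1GH minus 0GH in the other, with 95% intervals. Orange marks an unadjusted p under 0.05: no gene in the receptor panel, and Blm, Mcm3 and Mcm6 in the GH panel, where Blm lies at 2.76. No difference passed after adjustment.

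For the GH number, Blm stood apart from the other replication genes. Blm unwinds recombination intermediates and stalled forks and belongs to the RecQ helicases. It read -1.12, -2.83 and -1.76 in WT 0GH, 1.08, 0.84 and 2.03 in WT 1GH, -1.05, -0.63 and -2.43 in NLS 0GH and 0.52, 0.46 and 1.79 in NLS 1GH. All 6 arrays of 1GH lay above all 6 of 0GH. The group means were -1.91 ± 0.86, 1.32 ± 0.63, -1.37 ± 0.94 and 0.92 ± 0.75 (SD, n = 3 each).

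The averaged difference for Blm, 1GH minus 0GH as in all comparisons of the GH number, was 2.76, or 6.76-fold (SE 0.48, 95% interval 1.69 to 3.82), with 1.88, 2.38 and 4.01 in letters b, c and d. Its unadjusted p of 0.000179 was the lowest of all 15115 features and its rank is 1, yet the adjusted p was 1.0 by limma with Benjamini-Hochberg adjustment. The difference was 3.22 (SE 0.68) in WT and 2.29 (SE 0.68) in NLS. Between receptors it was 0.07 (95% interval -0.99 to 1.14), and the interaction was -0.94 (SE 0.96). Under the alternatives tried, single arrays and letters left out included, the averaged difference stayed between 2.13 and 3.19 and its adjusted p between 0.605 and 1.0. Blm was 1 of 49 genes whose 6 arrays of each GH number did not overlap, and 0.225% of all features had that. Because Blm is singled out among 49 genes after results of these data were known, the rank is a description.

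The other 2 genes with an unadjusted p under 0.05 in that comparison, against 3.3% of features, were subunits of the ring and lay lower at 1GH. Mcm3 read 4.27, 1.36 and 0.75 in WT 0GH, -0.14, 1.43 and -0.34 in WT 1GH, 0.06, 0.50 and 2.78 in NLS 0GH and -2.70, 0.19 and -0.32 in NLS 1GH. Its averaged difference was -1.93 (SE 0.81, unadjusted p = 0.0378), but letter c gave -0.12, the groups overlapped, and it was -1.11 without letter b.

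Mcm6 read -0.06, 1.20 and 1.90 in WT 0GH, 0.26, -0.37 and -0.20 in WT 1GH, 1.41, 0.71 and 1.88 in NLS 0GH and 0.04, 0.61 and 1.07 in NLS 1GH. It differed by -0.94 (SE 0.41, unadjusted p = 0.0460), with letters at -0.53, -0.83 and -1.46, and the groups overlapped. The adjusted p of both was 1.0 by limma with Benjamini-Hochberg adjustment. The other ring subunits lay at -0.47 (Mcm5), -0.13 (Mcm2), 0.12 (Mcm4) and 0.03 (Mcm7). The signs of Mcm2, Mcm4 and Mcm7 turned under some alternatives. Rpa2 at -1.96 (SE 0.92), Prim2 at -1.60 (SE 0.78) and Gins3 at 1.85 (SE 0.94) had the next lowest p-values. Of 49 genes, 19 were above 0, against 50.9% of features.

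Within WT, 4 of 49 genes had an unadjusted p under 0.05 (2.9% of features): Blm, Prim2, Cdc45 and Orc4. Prim2 was at 4.42, 1.08 and 2.74 in WT 0GH and at -1.56, -0.38 and -0.85 in WT 1GH, without overlap. It differed by -3.68 (SE 1.04, unadjusted p = 0.00626, adjusted p = 1.0 by limma with Benjamini-Hochberg adjustment). Cdc45 differed by 2.71 (SE 1.10), with letter d at -0.29. Orc4 differed by -4.65 (SE 1.91), on 6.05 in WT 0GH d and -3.39 and -4.60 in WT 1GH, and by -1.66 without letter d. Groups did not overlap in 5 genes, against 7.91% of features: Blm higher and Orc3, Prim2, Rpa2 and Rrm2 lower. Lig1 differed by 0.62 (SE 0.42) and Mcm6 by -1.11 (SE 0.58; -0.62 without letter d). Of 49 genes, 19 were above 0, against 50.2% of features.

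Within NLS, 1 of 49 genes, Blm, had an unadjusted p under 0.05, against 3.39% of features. Groups did not overlap in 4 genes, against 10.8% of features: Blm and E2f1 higher and Gins2 and Rpa1 lower. E2f1 had a value on only 2 arrays of NLS 1GH. Gins2 is the mean of 2 spots, and the groups overlapped in one of them. That spot read 2.79, 0.56 and 1.92 in NLS 0GH and -0.61, 0.61 and 1.25 in NLS 1GH. Gins3 differed by 2.03 (SE 1.33), Pola1 by 2.18 (SE 1.46), Rpa1 by -1.30 (SE 0.63), Gins2 by -1.39 (SE 0.74) and Mcm3 by -2.06 (SE 1.14). At their smallest, with an array or letter left out, these were 1.13, 1.07, -0.76, -0.70 and -1.18. Of 49 genes, 18 were above 0, against 51.3% of features, and 31 without centring, where the median of all features moves from 0.02 to 0.35.

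**Figure D4:**
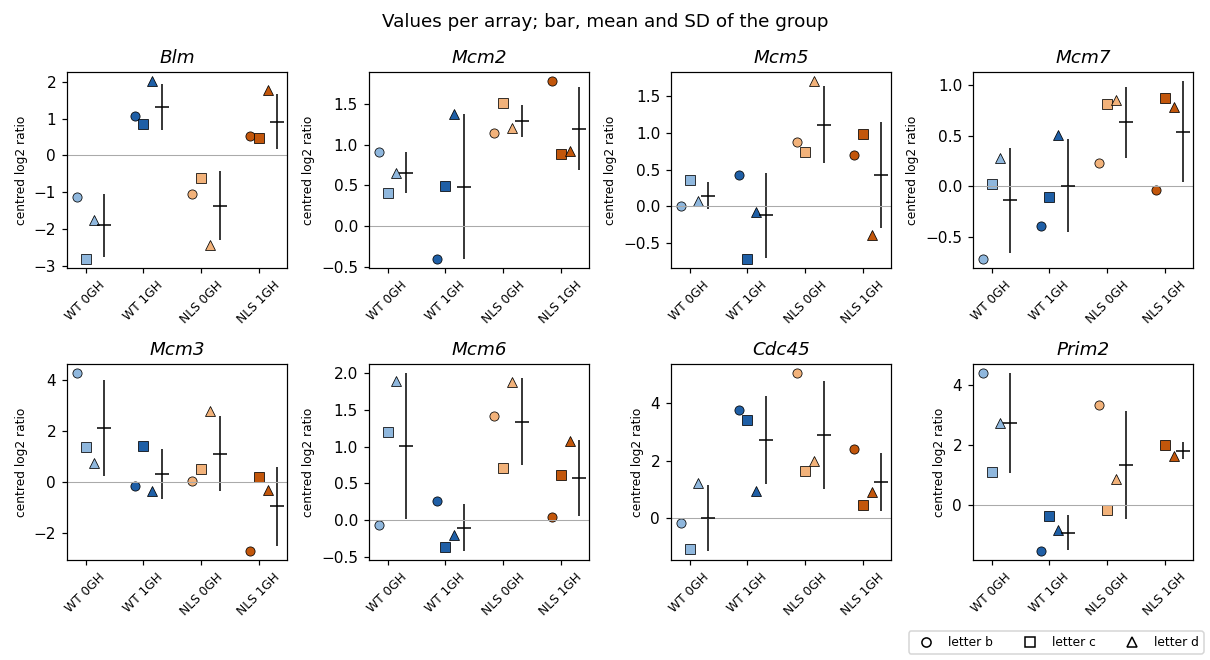
Log2 ratio on each array of Blm, Mcm2, Mcm5, Mcm7, Mcm3, Mcm6, Cdc45 and Prim2 in the 4 groups, with letters b, c and d as circle, square and triangle, and the group mean with its SD. For Blm all 6 arrays of 1GH lie above all 6 of 0GH.

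In the interaction, which asks whether the GH number differed between receptors, 2 of 49 genes had an unadjusted p under 0.05, against 3.01% of features: Cdc45 and Prim2. Cdc45 gave -4.34 (SE 1.56, unadjusted p = 0.0193) and Prim2 4.16 (SE 1.56, unadjusted p = 0.0255), and neither passed adjustment (adjusted p = 1.0 for both by limma with Benjamini-Hochberg adjustment). In Cdc45 the arrays of WT 1GH read 3.77, 3.41 and 0.95 and those of NLS 1GH 2.40, 0.46 and 0.92, so at 1GH the receptors overlapped. Rpa1 gave -1.71 (SE 0.90), Gins2 -1.95 (SE 1.05), Orc3 1.09 (SE 0.85) and Orc4 4.42 (SE 2.87). Without letter b these became -0.55, -0.28, 0.0030 and 7.65, and Orc4 was 1.82 without letter d. Of 49 genes, 25 were above 0, against 51.6% of features, and 39 without centring, where the median of all features moves from 0.04 to 0.65.

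Across the other lists, 0 of 34 further replication genes, 0 of 12 genes of the helicase list and 0 of 25 G2/M genes passed in any of the 7 comparisons. In the averaged receptor comparison an unadjusted p under 0.05 came from 2 of the 34 and 2 of the 12. They were the polymerase epsilon subunit Pole4 (1.77, SE 0.46) and the polymerase delta subunit Pold3 (-2.02, SE 0.88), and Ercc2 (2.88, SE 1.23) and Xrcc6 (1.35, SE 0.51). For the averaged GH number it came from 0 of the 34 and 1 of the 12, the helicase Brip1 (-1.32, SE 0.47), opposite in sign to Blm.

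Precision differed widely among these genes. The median within-group SD was 1.30, from 0.173 for Rrm2 to 3.59 for Rfc4, against a median of 1.27 over all features. It was below 0.5 in 9 of 49 genes (18.4%, against 14.5% of features): Cdc6, Mcm7, Pold1, Pcna, Lig1, Rrm1, Rrm2, Tk1 and Uhrf1. For Rrm1 and Rrm2 the averaged receptor difference was 0.17 and 0.20, with 95% intervals from -0.44 to 0.78 and from -0.36 to 0.76. The arrays of letter b lay farther from their group means than the others, with a median absolute deviation of 0.669 against 0.549 for c and 0.497 for d. Over all features it was 0.648, 0.543 and 0.558.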

How the data were processed

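Total RNA of 12 samples was measured on 2-colour arrays, 3 per group. The authors deposited log ratios read here as log2 from their range (-14.6 to 18.2); the base is not stated. Per the series' design text, a Lowess curve over 50% of the data adjusted the control value, with a floor of 200. The sources used here name no scanner or background method, and the number of arrays limits the precision. Of 23040 spots, 902 controls were left out. Each array was centred on the median of 11245 spots with a value on all 12, after the sign of all deposited log2 values was turned. Features needed a value on 2 arrays per group, and kept spots of a gene were averaged (15115 features, of which 11843 are named genes). The limma 3.58.1 model in R 4.3.3 had no block, was two-sided and was tested on simulated data (7 false calls). Samples of one letter share a red dye incorporation of 19.3, 19.8 or 17.9 bp per dye molecule. Spots naming several genes were left out (3 with a replication gene). Promoters are from RefSeq. Alternatives covered centring, quantile normalization, filters, the 16-bit limit, spot averaging, the prior, the letter as block and left-out arrays and letters.

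The members and the gene lists were chosen with earlier results of these data known. Named genes are those past an adjusted p of 0.05, where fewer than 5 pass the 3 lowest p-values in each direction, for the ratio the 5 highest and lowest, and always Mcm2 to Mcm7, Pcna, Blm, Ccne1 and E2f1. Fibroblast, erythroid, B lymphoid, myeloid and T lymphoid markers were read as cell type lists; the median ratio to the reference of the last 3 was 0.54, -0.43 and -0.39.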

Additional observations from a re-analysis of the deposited data

Results flagged for a closer look

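Named genes were picked mainly for low p-values in these same group comparisons. The share of all features with the pattern given here was not counted. Among the named genes with a value on all arrays, 2 had a receptor difference (NLS minus WT) of one sign in all 3 letters at 0GH and of the opposite sign in all 3 at 1GH, and neither interaction passed adjustment. For Cdc45 it was 5.22, 2.70 and 0.75 in letters b, c and d at 0GH and -1.37, -2.95 and -0.03 at 1GH, and the interaction was -4.34 (SE 1.56, unadjusted p = 0.0193, adjusted p = 1.0 by limma with Benjamini-Hochberg adjustment). For Lig1 it was 0.23, 0.34 and 0.44 at 0GH and -0.08, -0.46 and -1.03 at 1GH, and the interaction was -0.86 (SE 0.59, unadjusted p = 0.174, adjusted p = 1.0 by limma with Benjamini-Hochberg adjustment).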

How the results depend on the processing

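The letters b, c and d may pair the arrays: deviations from group means correlated at 0.0352 to 0.236 within a letter (18 pairs, median 0.145). Between letters they correlated at -0.181 to 0.0457 (36 pairs, median -0.0717). Not every pair within a letter passed 0.1, so the block was kept as an alternative. The fit without a block ignores this correlation, so it may call too many genes for the ratio to the reference. With the letter as a fixed replicate block, 0 members and 0 of 15115 features passed in each of the 7 group comparisons. For the ratio to the reference 24 of 49 members passed with that block, against 6932 of 15115 features. Without a block 27 members passed, against 6505 features, and with a random block 20, against 4955. The calls over all features thus moved as well.

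Without centring, with or without the block, 35 (receptor at 1GH), 31 (GH number in NLS) and 39 (interaction) of 49 genes were above 0. Without centring the median of all features moved to -0.26, 0.38, -0.26, 0.35, 0.65, 0.06 and 0.04 in the 7 comparisons and to 0.30 for the ratio. The members' median ratio over that of all features was 0.67 with a value required on all 12 arrays (39 genes), 1.13 with 1 value per group and 0.80 without ratios past the 16-bit limit. The cause was not tested. The averaged receptor comparison called 1 feature, no replication gene, with spots not averaged, and 0 to 1 with arrays or letters left out (1 without WT 0GH d). With arrays or letters left out, the ratio to the reference called 10 to 25 of 49 genes and 2760 to 6204 features, and the members' median over that of all features was 0.81 to 1.04. Of the 27 genes called for that ratio, 21 lost the call in some alternative.

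Signs turned for some values. The ratio of E2f1 (-0.16) became 0.78 with the fixed and 0.087 with the random block, 0.28 and 1.33 without centring (without and with the block) and 0.36 with quantile normalization, and ran from -1.09 to 0.67 with arrays or letters left out. That of Blm (-0.26) became 0.16 without centring, with or without the block, and 0.27 with quantile normalization. Ccne1 ran from -1.45 (without b, adjusted p = 0.0217 by limma) to 0.11 (without d). For the averaged GH number, Mcm2 ran from -0.35 to 0.092, Mcm4 from -0.17 to 0.32 and Mcm7 from -0.12 to 0.17 with arrays or letters left out, and Mcm4 was -0.16 without letter b and with the block, an alternative chosen after seeing the data. Mcm2 at 1GH ran from -0.029 to 1.30 between receptors. The cause was not tested. In the group comparisons 1223 of 1234 values of named genes kept their direction and stayed above the threshold, in a design where none passed to begin with.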
